A study of Homo sapiens with 12 samples.

Results

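The replication-dependent histone genes encode the linker histone H1 and the core histones H2A, H2B, H3 and H4 that package newly replicated DNA. They were taken as all genes of the expression table whose symbols start with HIST1H, HIST2H, HIST3H or HIST4H, apart from 3 pseudogenes, which left 70 of the 25268 genes listed. Of these, 6 encode H1, 17 H2A, 18 H2B, 14 H3 and 15 H4. The study used HEK293 cells, a line derived from human embryonic kidney. Cells were transiently transfected with 2 µg of a plasmid for HIS- and HA-tagged RBMX under the CMV promoter, or with the empty vector as the control, whose libraries the labels also call wild type. RBMX (hnRNP G) is an RNA-binding protein found in the nucleus and also in the cytoplasm. RNA was isolated 48 h later from the cytoplasmic lysate after cycloheximide treatment and sucrose gradient separation. Polysomal RNA came from the heavy fractions, and total RNA was a pool of 20% of each fraction. Each of the 4 groups (control total, RBMX total, control polysomal and RBMX polysomal) held 3 libraries, 12 in all.

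Replication-dependent histone genes are transcribed mainly in S phase from gene clusters with the coactivator NPAT, and most of them lack introns. Their mRNAs are cut after a conserved stem-loop, with the help of the stem-loop binding protein SLBP and the U7 particle with its LSM10 and LSM11 subunits, and so end without the poly(A) tail of other mRNAs. Some of the genes also give polyadenylated transcripts that run past the stem-loop. The libraries were made from 500 ng of RNA with a TruSeq RNA kit, which as sold selects polyadenylated RNA, and the levels here are those of the transcripts that entered such libraries.

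In the GENCODE annotation (GRCh38, release 29) 55 of the 70 genes lay in the HIST1 cluster on chromosome 6 (chr6:25726132-27893843). A further 11 lay in the HIST2 cluster (chr1:149782689-149887916), 3 in HIST3 (chr1:228424845-228460470), and HIST4H4 stood alone on chromosome 12. The longest coding transcript of 29 of the 70 genes held the stem-loop motif, against 0.473% of the 19644 coding genes scanned in the same way. With every coding transcript of a gene considered, 32 of the 70 held it after the stop codon. The annotated transcript continued for more than 100 bases past the loop in 23 of these 32 and stopped sooner in 9. For 34 genes the annotation held no 3′ untranslated region, and in 4 it held one without the motif. The most frequent core was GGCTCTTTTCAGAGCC, in 17 genes, then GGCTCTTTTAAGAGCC and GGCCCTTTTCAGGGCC in 5 each. The following windows of GENCODE transcripts are shown because the results below turn on most of these genes and the others give further forms of the core. The 16-base stem-loop is in capitals, in the DNA letters of the transcript's strand, and all are in 3′ untranslated regions.
HIST1H4E, chr6:26204996-26205021, plus strand: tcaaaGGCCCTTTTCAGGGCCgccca
HIST1H4B, chr6:26026896-26026921, minus strand: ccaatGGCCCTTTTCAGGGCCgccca
HIST1H4I, chr6:27139649-27139674, plus strand: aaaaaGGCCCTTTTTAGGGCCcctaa
HIST1H3E, chr6:26225591-26225616, plus strand: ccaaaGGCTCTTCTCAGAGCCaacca
HIST1H2BD, chr6:26158582-26158607, plus strand: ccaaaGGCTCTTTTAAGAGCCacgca
HIST2H2BF, chr1:149811880-149811905, minus strand: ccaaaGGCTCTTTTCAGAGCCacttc
HIST1H2AC, chr6:26124664-26124689, plus strand: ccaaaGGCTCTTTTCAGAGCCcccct
HIST3H2A, chr1:228457364-228457389, minus strand: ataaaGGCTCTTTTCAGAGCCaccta

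The promoters also differed by class. RefSeq promoter windows (GRCh38.p14, 250 bases before to 50 after the start) were found for 60 of the 70 genes and were scanned on both strands for exact letters. TATAAA was present in 66.7% of them, against 12.0% of all 27305 promoters. CCAAT was present in every H1, H2A, H2B and H3 promoter but in 3 of 13 of H4, against 35.7% of all promoters. The octamer ATTTGCAT, the site of the POU factor Oct-1, was present in 11 of 16 H2A and 9 of 13 H2B promoters, in 1 of 12 of H3 and in none of H1 and H4, against 1.8% of all promoters. The H1 box AAACACA was present in 6 of 6 H1 promoters, against 5.76% of all. HIST1H2AG and HIST1H2BJ are transcribed away from each other and share the octamer window shown. HIST2H2BE shares its window with HIST2H2AC. The HIST1H2AL window is printed from the strand opposite to its gene, and the first shared window from the strand of HIST1H2BJ. The others are printed from the strand of the gene named. The capitals mark the octamer in the first 4 windows and the H1 box in the last 2.
HIST1H2AL: taatcacctcATTTGCATaagaattcgt
HIST1H2AG and HIST1H2BJ: tcttcaccttATTTGCATaagcgattct
HIST1H2BK: tcttcaccttATTTGCATgagaggtcct
HIST2H2BE: cggagccctaATTTGCATaaggtggtta
HIST1H1E: gaggtgtaacAAACACAactcgggatcc
HIST1H1C: gaggtggaacAAACACAacttgggagca

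Expression was deposited as FPKM, the fragments per kilobase of transcript scaled to all mapped fragments of a library. Levels can thus be compared between genes only roughly. For these short and homologous genes they depend on the annotated transcript length, and the annotation behind the values is not known for certain. Read counts were not recoverable from the values, so the depth of each library is unknown. A mean of at least 0.5 FPKM over the 12 libraries was reached by 14676 genes, which were tested, among them 47 of the 70 histone genes (4 of H1, 13 of H2A, 13 of H2B, 8 of H3 and 9 of H4). RBMX itself measured 147, 145 and 108 FPKM in control total RNA, against 1731, 2073 and 1460 with the RBMX plasmid. It measured 146, 148 and 87.4 FPKM in control polysomal RNA and 1167, 1328 and 1072 in RBMX polysomal RNA, so the RBMX level of every library fitted its plasmid label. This does not check the fraction label. VIM and KRT8, listed as genes of HEK293 but not particular to that line, were present in every library. UMOD of the mature kidney tubule was listed at 0 in all 12, and SLC12A1 and AQP2 reached at most 0.018 and 0.0075 FPKM. Not all markers of other cell types were absent. In control total replicate 1 SYP of neurons measured 6.66 FPKM and COL1A1 of fibroblasts 5.17, beside 3.40 for PAX2 of the HEK293 list. Control replicate 3 differed from the other two controls in both directions. It had 248 FPKM of VIM in total RNA against 522 and 549, and its total library was the highest of the 12 for 3161 of the genes tested.

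One library stood apart for the histone genes and bears on all polysomal results below. RBMX polysomal replicate 2 held the highest value of all 12 libraries for 42 of the 47 tested histone genes. It did so for 17% of all genes tested. It was the highest by at least 2-fold (on the log2(FPKM + 1) scale) for 37 of the 47, against 0.422% of all genes tested (62 genes, the 37 included). The summed FPKM of the 70 genes was 2309 in this library and between 531 and 782 in the other 11. Counts and medians in polysomal RNA are therefore given with and without it.

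**Figure D1:**
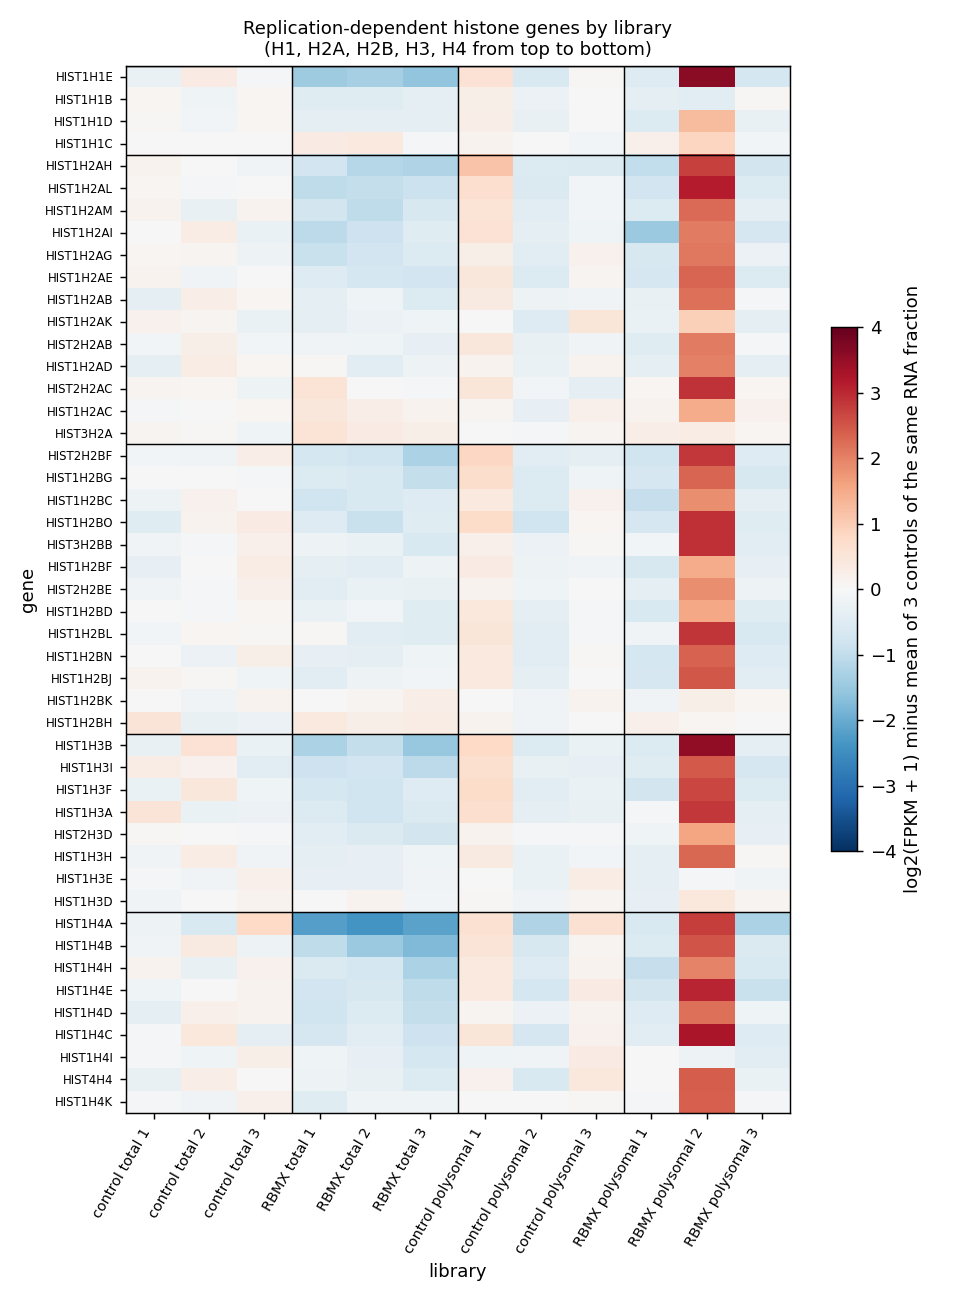
Heat map of the 47 tested histone genes (rows, grouped by class) in the 12 libraries (columns). Colour gives log2(FPKM + 1) minus the mean of the 3 controls of the same fraction. The 3 RBMX total columns are blue for most genes, and RBMX polysomal replicate 2 is the one dark red column.

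Levels spanned a wide range and a few genes made up much of the sum. HIST1H2BK (H2B) was the highest, at 161, 148 and 180 FPKM in the control total libraries. Next were HIST1H1C (H1) at 84.6, 82.8 and 81.9 FPKM and HIST3H2A (H2A) at 86.4, 82.7 and 71.6 FPKM, which overlapped. Together these 3 genes held 50.5% ± 1.1 (SD, n = 3) of the summed histone FPKM in control total RNA. HIST1H4H and HIST1H4E led the H4 genes, and HIST1H3H and HIST1H3B the H3 genes, all at lower levels. Over the 11 libraries other than RBMX polysomal replicate 2, HIST1H2BK varied 1.33-fold from lowest to highest, HIST1H1C 1.49-fold and HIST3H2A 1.63-fold. HIST1H3I varied 33.4-fold and HIST1H4A 32.8-fold over the same libraries.

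The comparison of RBMX with control in total RNA asks which histone genes differed in measured transcript level in the cytoplasmic lysate. Most were lower with RBMX. The values cover transcripts that entered libraries of a kit that as sold selects polyadenylated RNA. They need not track all mRNA of these genes. In bulk RNA, fewer cells of a type and less RNA per cell cannot be told apart. The log2 fold change was below 0 for 40 of the 47 genes, against 49.8% of all genes tested, with a median of -0.41 where the median of all genes was 0.00. The values of the 3 RBMX libraries all lay below the 3 control values for 31 of the 47, against 15.4% of all genes tested, and above them for 2 of the 47, against 11.9% of all genes. With limma on log2(FPKM + 1) and Benjamini-Hochberg adjustment over all genes, 1 of the 47 passed an adjusted p of 0.05 as lower, against 0.0545% of all genes tested, and none as higher. At an unadjusted p under 0.05, 26 of the 47 were lower, against 10.8% of all genes, and 2 were higher, against 7.93%. The labels number the replicates without saying whether they were separate cultures, and the methods describe the libraries as biological triplicates. The p-values measure the spread between these libraries. Fold changes on this scale understate the change of genes with low FPKM.

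The gene that passed was HIST1H2AL, an H2A gene. It measured 7.25, 6.45 and 6.88 FPKM in control cells and 2.84, 3.10 and 3.37 with RBMX. HIST1H2AL fell by 0.94 ± 0.07 (SE) on the log2 scale (limma adjusted p = 0.024, n = 3 and 3), and its mean FPKM was 2.21 times as high in the control. This call was lost (adjusted p from 0.056 to 0.20) when any 1 of the libraries was left out other than RBMX replicate 3, and with all 12 libraries in one fit (adjusted p = 0.62).

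The H4 genes, whose protein pairs with H3 in the core of the nucleosome, had the lowest class median on the log2(FPKM + 1) scale, -0.76. All 9 tested were lower. The order of the classes need not hold for FPKM ratios, since this scale understates changes at low FPKM. In the control total libraries the median level was 5.05, 6.15 and 5.05 FPKM for H4 but 2.09, 1.84 and 1.06 FPKM for H3. HIST1H4A measured 5.05, 3.58 and 11.2 FPKM in control cells and 0.502, 0.342 and 0.567 with RBMX. The groups lay far apart, with a mean 14.1 times as high in the control, and a log2 fold change of -2.25 ± 0.36 that did not pass adjustment (adjusted p = 0.15). Without control replicate 3 the log2 fold change of HIST1H4A was -1.84 and passed (adjusted p = 0.041). HIST1H4B measured 6.19, 9.08 and 5.86 FPKM in the control and 2.93, 1.86 and 1.33 with RBMX, a log2 fold change of -1.42 ± 0.24 (adjusted p = 0.16). The higher-level genes HIST1H4H (49.1, 35.7 and 49.7 against 29.4, 26.9 and 17.8 FPKM) and HIST1H4E (18.9, 21.6 and 23.6 against 12.2, 13.3 and 9.93 FPKM) also had groups that did not overlap. On the log2(FPKM + 1) scale HIST1H4K, a gene of low FPKM, had the smallest H4 difference, at -0.27. Its mean FPKM was 1.77 times as high in the control. By this ratio HIST4H4 had the smallest difference of the tested H4 genes, at 1.36. The summed FPKM of the 15 H4 genes was 97.4 ± 8.1 (SD, n = 3) in the control and 49.6 ± 9.8 with RBMX.

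The H3 genes had a median log2 fold change of -0.61, and 7 of 8 were lower. HIST1H3B measured 4.67, 9.38 and 4.83 FPKM in the control and 1.88, 2.64 and 1.44 with RBMX, a log2 fold change of -1.25 ± 0.28 (limma adjusted p = 0.18). HIST1H3H, the H3 gene with the highest mean level, was nearer between groups (15.9, 22.1 and 15.8 against 13.4, 13.9 and 15.6 FPKM). HIST1H3D did not separate, with a log2 fold change of 0.01 ± 0.09. The summed FPKM of the 14 H3 genes was 34.2 ± 6.1 in the control and 21.8 ± 1.1 (SD, n = 3 each) with RBMX.

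Among H2A and H2B genes, which form the outer dimers of the nucleosome, 10 of 13 H2A and 11 of 13 H2B genes were lower, and the class medians were -0.37 and -0.34. HIST1H2AH had the lowest H2A value, with 6.41, 5.70 and 5.18 FPKM in the control and 2.93, 2.07 and 1.94 with RBMX, a log2 fold change of -1.04 ± 0.14 (adjusted p = 0.11). HIST2H2BF had the lowest H2B value, with 6.88, 6.70 and 9.10 FPKM against 4.22, 3.85 and 2.51, a log2 fold change of -0.93 ± 0.19 (adjusted p = 0.17). HIST3H2A (86.4, 82.7 and 71.6 against 117, 102 and 93.5 FPKM) and HIST1H2AC (20.3, 20.9 and 22.4 against 29.6, 25.5 and 23.3 FPKM) were the 2 genes whose RBMX values all lay above the control. Their log2 fold changes were 0.37 ± 0.11 (adjusted p = 0.20) and 0.28 ± 0.10 (adjusted p = 0.23). HIST1H2BK (162, 175 and 197 FPKM with RBMX) overlapped the control, as did HIST1H2BJ, the H2B gene second in mean level. HIST1H2BH, at 1.13, 0.207 and 0.269 FPKM in the control and 0.954, 0.727 and 0.809 with RBMX, had the highest H2B value, 0.30 ± 0.23, with overlapping groups. That value was 0.56 without control replicate 1 and 0.15 without control replicate 2. Because a few high genes make up most of these sums, the H2A sum (154 ± 10.3 against 161 ± 15.8 FPKM) and the H2B sum (268 ± 19.3 against 255 ± 16.6 FPKM, SD, n = 3 each) overlapped between control and RBMX.

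The linker histone genes split in the same way. HIST1H1E measured 4.86, 7.86 and 5.65 FPKM in the control and 1.63, 1.79 and 1.35 with RBMX, a log2 fold change of -1.44 ± 0.17 (limma adjusted p = 0.087). HIST1H1B was also lower in every RBMX library (1.36, 0.994 and 1.36 against 0.607, 0.608 and 0.726 FPKM). HIST1H1C, the most abundant of the class, had a log2 fold change of 0.21 ± 0.13 with overlapping groups (105, 109 and 78.1 FPKM with RBMX). HIST1H2BK, HIST3H2A and HIST1H1C together held 64.5% ± 0.90 (SD, n = 3) of the summed histone FPKM in RBMX total RNA, above all 3 control libraries.

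**Figure D2:**
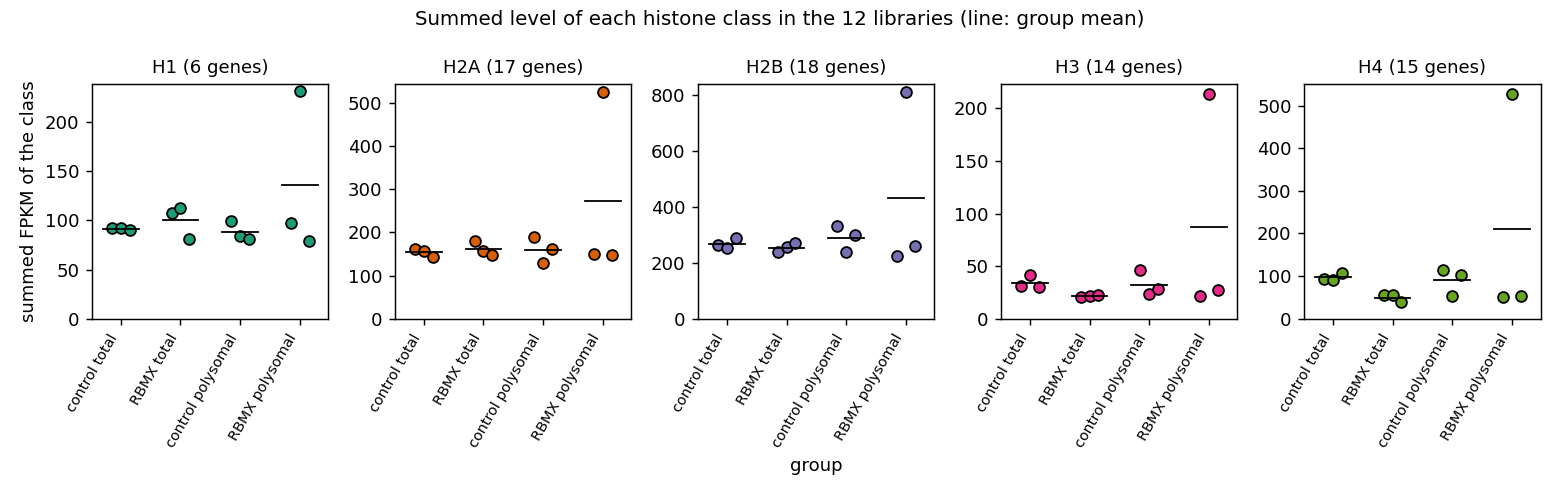
Summed FPKM of each histone class (y axis, from 0) in the 4 groups, 1 point per library and a line at the mean. The H4 and H3 sums of the 3 RBMX total libraries lie below the 3 control total libraries, and RBMX polysomal replicate 2 is the highest point in each panel.

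In polysomal RNA the comparison asks which histone genes differed in measured transcript level in the pool bound to several ribosomes. With all libraries 43 of the 47 genes had a log2 fold change above 0 and 4 below, where 49.9% of all genes were below. The median of the 47 was 0.43. The groups overlapped for every one of them, where 10% of all genes were apart as higher and 12.5% as lower. None passed in limma (0.0477% of all genes did), and none reached an unadjusted p under 0.05 (11.7% of all genes did). Without RBMX polysomal replicate 2 the direction turned. Then 42 of the 47 were below 0, against 48% of all genes, with a median of -0.41. The 2 remaining RBMX libraries lay below all 3 controls for 17 of the 47, against 14.5% of all genes tested. None passed (0.075% of all genes did), and none reached an unadjusted p under 0.05 (5.95% of all genes did). The class medians without that library were -0.30 for H1, -0.37 for H2A, -0.54 for H2B, -0.26 for H3 and -0.49 for H4.

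The control polysomal libraries themselves differed. Control replicate 1 was the highest of the 3 for 36 of the 47 genes and control replicate 2 the lowest for 42. Their mean difference was 0.75 on the log2 scale, while no pair of the control total libraries differed by more than 0.082 in the mean.

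Named genes show the turn. HIST1H1E measured 8.66, 3.25 and 5.74 FPKM in control polysomal RNA and 3.51, 78.8 and 2.98 in RBMX polysomal replicates 1, 2 and 3. Its log2 fold change was 0.79 ± 1.23 with all libraries and -0.62 without replicate 2. HIST1H3B, the H3 gene with the highest polysomal fold change, measured 10.4, 3.57 and 4.55 against 3.57, 76.6 and 4.01 FPKM. HIST1H4C, its counterpart in H4, measured 10.4, 4.18 and 8.22 against 4.93, 77.9 and 4.71 FPKM. In each of these genes a single library lay above the controls and the other two were within or under their range.

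HIST2H2AC and HIST3H2BB had the highest polysomal values of H2A and H2B. HIST2H2AC measured 8.42, 5.24 and 4.29 against 6.19, 49.6 and 6.08 FPKM, and its log2 fold change was 1.02 ± 0.83 with all libraries and 0.07 without replicate 2. HIST3H2BB measured 6.70, 4.66 and 5.97 against 5.23, 50.0 and 3.87 FPKM. HIST1H2AL, called in total RNA, measured 13.5, 5.09 and 7.41 against 4.29, 79.4 and 5.24 FPKM in polysomal RNA. HIST1H2AI had the lowest polysomal value of H2A with all libraries, -0.03 ± 0.95, and -1.08 without replicate 2 (11.3, 5.26 and 6.41 against 1.94, 33.9 and 4.26 FPKM).

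A few genes were little or not raised in that library. HIST1H2BK measured 168, 153 and 186 FPKM in control and 151, 197 and 179 in RBMX polysomal RNA. HIST3H2A measured 77.8, 75.4 and 85.6 against 95.9, 98.0 and 84.7 FPKM. Replicate 2 was the highest of the polysomal libraries for both, by a small margin. HIST1H1B (1.12, 0.541 and 0.782 against 0.359, 0.307 and 0.848 FPKM), HIST1H3E (2.61, 2.06 and 3.52 against 1.85, 2.51 and 2.32 FPKM) and HIST1H4I (1.13, 1.18 and 2.02 against 1.37, 1.12 and 0.813 FPKM) had the lowest polysomal fold changes of H1, H3 and H4. Replicate 2 did not stand above the control range in any of these 3.

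**Figure D3:**
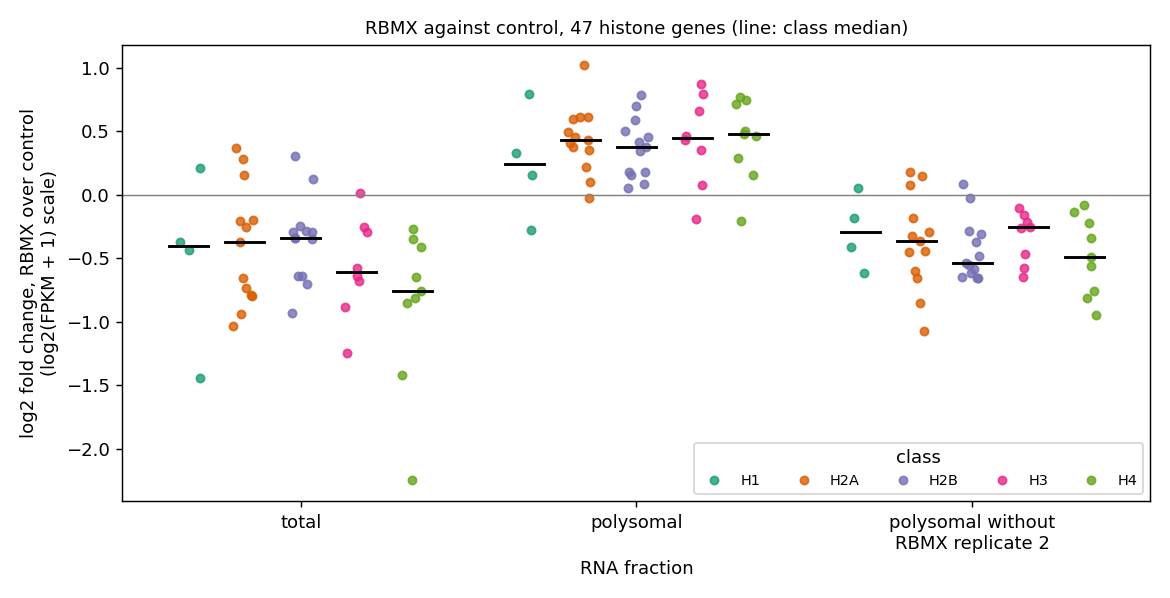
Log2 fold change of RBMX over control (y axis, log2(FPKM + 1) scale) for the 47 histone genes, by class, in total RNA, in polysomal RNA, and in polysomal RNA without RBMX replicate 2. Points are genes and lines class medians, which lie below 0 at the left and right and above 0 in the middle.

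The size of the excess in RBMX polysomal replicate 2 differed widely between genes. Relative to the mean of RBMX polysomal replicates 1 and 3 its FPKM was 8.69 times as high in the median of the 47 genes, with a range from 0.508 (HIST1H1B) to 24.2 (HIST1H1E). It was over 2-fold for 40 of the 47, against 0.968% of the 14467 genes with a value above 0 there, and over 5-fold for 36, against 0.408%. The class medians of this ratio were 4.07 for H1, 8.65 for H2A, 8.82 for H2B, 11.6 for H3 and 10.9 for H4. The ratio was under 1.5 for 6 genes: HIST1H3E at 1.20, HIST1H2BK at 1.19, HIST3H2A at 1.09, HIST1H4I at 1.02, HIST1H2BH at 0.977 and HIST1H1B at 0.508. HIST1H1C, at 1.76, and HIST1H2AC, at 2.61, were also far under the median. These genes were named after their ratios were seen.

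Genes of both kinds carried the stem-loop. Of the tested genes, 17 had an annotated end that ran more than 100 bases past the loop, with a median ratio of 6.63, and 5 had a shorter end, with a median of 10.9. The 22 with no annotated 3′ untranslated region had a median of 12.7, and the 3 with one that lacks the motif had a median of 16.2. HIST1H4E, HIST3H2A and HIST1H4I all hold a stem-loop and a long annotated end (windows above), and their ratios were 16, 1.09 and 1.02. The 4 groups of annotated ends overlapped in their ranges.

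Genes that were lower in RBMX total RNA tended to be those with the larger ratio in RBMX polysomal replicate 2. Over the 47 genes Pearson's r between the log2 differences was -0.67 and Spearman's rho was -0.71. This is a description across genes, which share libraries, homologous sequence and the pseudocount, and genes are not independent replicates. HIST1H4A, HIST1H1E and HIST1H3B were at one end, and HIST3H2A, HIST1H2BK and HIST1H1C at the other. HIST1H1B and HIST1H4I, lower in total RNA with ratios of 0.508 and 1.02, lay off that trend.

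**Figure D4:**
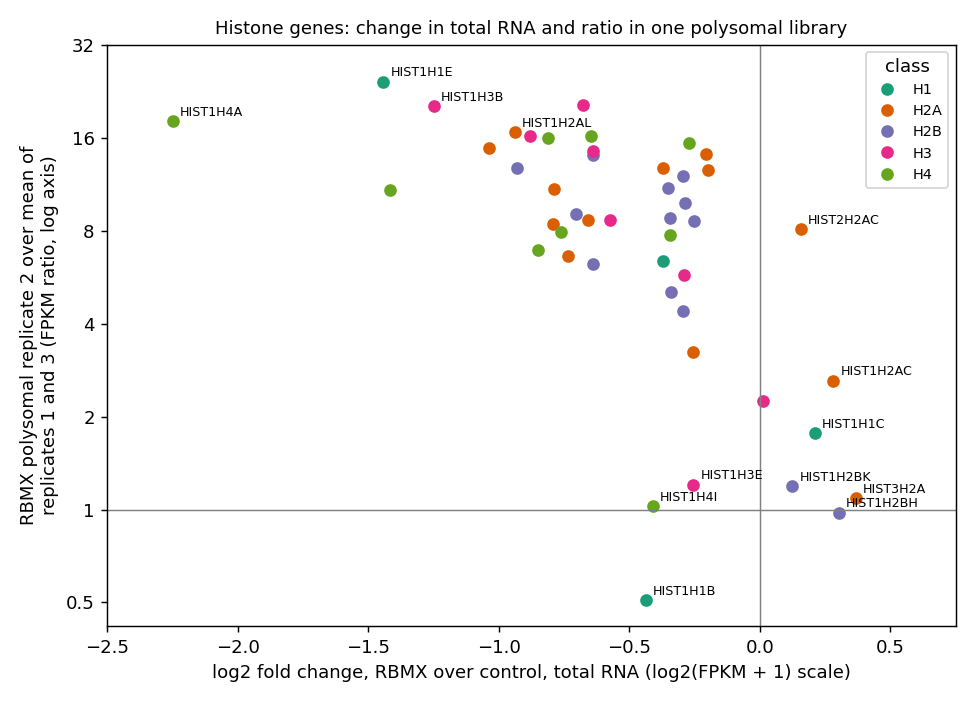
Each point is 1 of the 47 histone genes, coloured by class. The x axis is the log2 fold change of RBMX over control in total RNA and the y axis (log scale) the FPKM of RBMX polysomal replicate 2 over the mean of replicates 1 and 3. HIST1H4A and HIST1H1E are at the upper left, and HIST1H2BK, HIST3H2A and HIST1H2BH at the lower right.

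An interaction term in limma addresses whether RBMX had unequal effects in polysomal and in total RNA. With all libraries its median over the 47 genes was 0.98. It was above 0 for 44 and below 0 for 3, where 50.8% of all genes were below. None of the 47 passed (0.0204% of all genes did) and none reached an unadjusted p under 0.05 (0.6% of all genes did). Without both RBMX libraries numbered 2 the median was 0.08 and 21 of the 47 were below 0, against 49.1% of all genes. Again none was past either threshold (0.0273% and 0.511% of all genes were). So few genes of any kind passed that these fits could hardly detect a difference. The lack of calls therefore does not show equal effects. HIST1H4A had the highest value in both fits, 2.53 and 1.24.

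Polysomal RNA was also set against total RNA within each cell group. In control cells the median log2 difference of the 47 genes was -0.01, and none passed (0.0818% of all genes did), with 1 at an unadjusted p under 0.05 (8.04% of all genes), HIST2H3D (1.17, 1.09 and 1.02 FPKM in total and 0.991, 0.682 and 0.718 in polysomal RNA). In RBMX cells the median was 0.92 with all libraries and 0.05 without RBMX polysomal replicate 2. None of the 47 passed in either fit (1.34% and 0.286% of all genes did). At an unadjusted p under 0.05 there were none with that library (23% of all genes), and 11 higher and 3 lower without it, against 7.36% and 11.1% of all genes. All polysomal values lay above all total values for 14 of the 47 with that library, against 14.6% of all genes, and for 14 without it, against 19.8%. HIST1H4A was one of them, at 0.502, 0.342 and 0.567 FPKM in total and 2.85, 38.9 and 1.45 in polysomal RNA of RBMX cells.

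Of the 70 genes, 23 stayed under the minimum level and were not tested. Of these, 12 also had their highest value in RBMX polysomal replicate 2. The largest was HIST1H4J, at 2.74 FPKM there and at most 0.515 elsewhere, which has the same coding sequence as HIST1H4K (7.11 FPKM there). HIST1H2AJ reached 0.814 FPKM and HIST1H1A 0.561 FPKM in the same library. HIST1H2BE (at most 0.674 FPKM) and HIST1H3J (at most 0.781 FPKM) were highest in other libraries. The pairs HIST2H2AA3 and HIST2H2AA4, HIST2H3A and HIST2H3C, and HIST2H4A and HIST2H4B have identical coding sequences, so their reads could be split or dropped. All 6 were at most at 0.215 FPKM in every library, and their levels are uncertain. In all, 16 of the 70 genes, 7 of them tested, share a run of at least 100 coding bases with another member.

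The levels of other RNAs made without a poly(A) tail moved with the histone genes in part. RMRP, the RNA of RNase MRP, measured 126, 142 and 259 FPKM in control total RNA and 6.93, 7.57 and 12.2 with RBMX, and fell by 4.12 ± 0.34 on the log2 scale (limma adjusted p = 0.025, n = 3 and 3). Leaving out 1 library at a time, this call was lost in 4 of 6 cases (the highest adjusted p was 0.20). RPPH1, the RNA of RNase P, measured 46.0, 140.1 and 153 FPKM in the control and 13.5, 11.4 and 16.7 with RBMX, without passing (limma adjusted p = 0.16, and 0.012 without control replicate 1). In RBMX polysomal RNA RMRP measured 13.6, 241 and 10.1 FPKM, and RPPH1 measured 8.49, 128 and 5.01. Replicate 2 was thus the high library for both, as for the histone genes. It was also the highest of the 12 libraries for MALAT1 (64.2 FPKM) and for SCARNA2 (36.3 FPKM). In all it was so for 5 of the 12 such RNAs listed, against 17% of all genes tested. Others did not follow. RNU6ATAC measured 359, 203 and 393 FPKM in RBMX polysomal replicates 1, 2 and 3, and RNU12 measured 9.37, 0 and 0. Control total replicate 3 was the highest for 5 others. In total RNA 9 of the 12 had a log2 fold change below 0 and 3 above, where 49.8% of all genes tested were below. Of the 12, 1 passed as lower in total RNA, against 0.0545% of all genes tested. None passed in polysomal RNA, with or without replicate 2 (0.0477% and 0.075% of all genes did). Without it the log2 fold change in polysomal RNA was -0.44 for RMRP and -0.49 for RPPH1. Their part in the histone values was not tested.

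**Figure D5:**
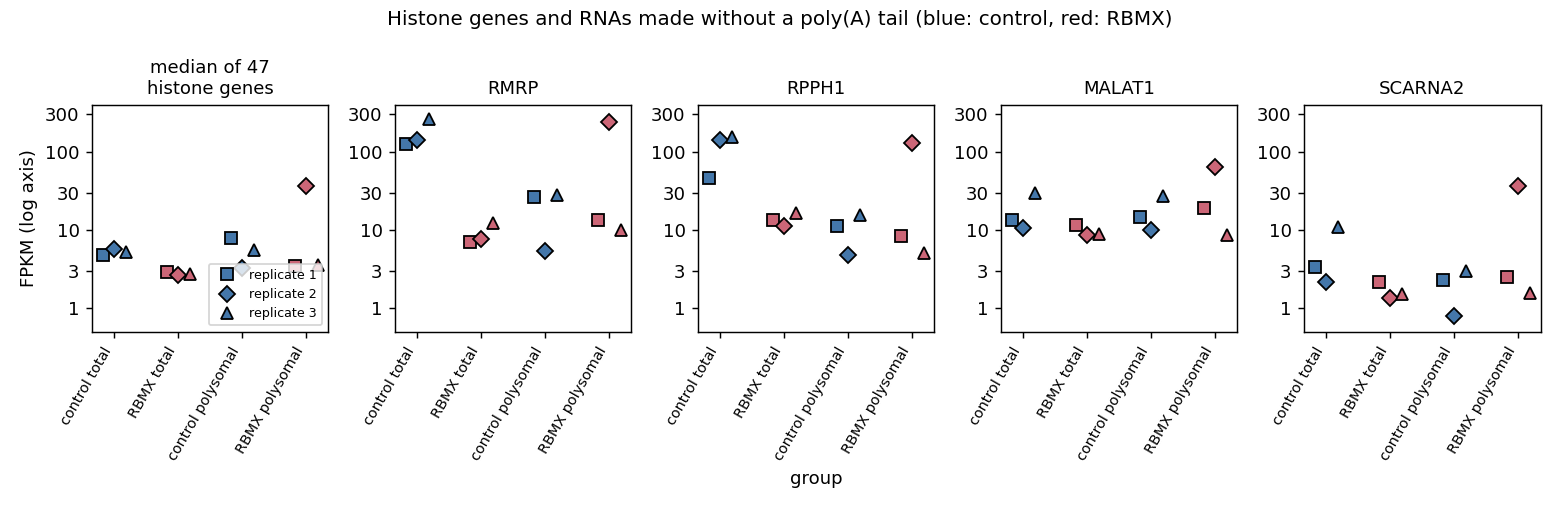
FPKM (log axis) of the median of the 47 histone genes and of RMRP, RPPH1, MALAT1 and SCARNA2 in the 4 groups, 1 marker per library with its shape giving the replicate. RBMX polysomal replicate 2 (red diamond) is the highest RBMX value in each panel, and all RBMX total values of RMRP and RPPH1 lie below those of the control.

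Genes that process, carry and regulate histone mRNAs were counted in the same fits. Of 24 genes of histone mRNA processing and decay none passed in total or polysomal RNA (limma), where 0.164% and 0.0477% of all genes did. At an unadjusted p under 0.05, 3 were higher and 3 lower in total RNA, against 7.93% and 10.8% of all genes. In polysomal RNA 2 were higher and 1 lower, against 5.16% and 6.53% of all genes. Without RBMX replicate 2 there were 1 and 0, against 2.92% and 3.03%. The medians were 0.07 in total RNA, 0.12 in polysomal RNA and 0.06 without that library. SLBP measured 61.8, 61 and 58.3 FPKM in the control and 58.2, 62.2 and 59.5 with RBMX in total RNA, where the groups overlapped. NPAT (6.38, 6.24 and 6.97 against 5.97, 6.58 and 6.17 FPKM) also overlapped, as did ERI1, the exonuclease that trims histone mRNA ends. CASP8AP2, a partner of NPAT, was at 15.4, 16.2 and 16.7 FPKM in the control and 14.7, 14.8 and 14.6 with RBMX. ZNF473, a zinc finger protein of the U7 complex, was at 12.7, 13.7 and 14.4 against 10.8, 11.6 and 11.7 FPKM. For both, the RBMX values all lay below the control, with adjusted p above 0.05. LSM10 was lower in polysomal than in total RNA of RBMX cells (29.3, 26.9 and 37.1 against 61.1, 63.6 and 75.8 FPKM, log2 difference -1.09 ± 0.14, limma adjusted p = 0.044). Without RBMX polysomal replicate 2 the difference was -0.99 and did not pass (adjusted p = 0.093). In control cells LSM10 measured 70.3, 60.9 and 69.9 FPKM in total and 32.4, 35.6 and 64.7 in polysomal RNA, a log2 difference of -0.65 ± 0.27 (adjusted p = 0.63). Control polysomal replicate 3 was thus at the level of the total libraries. LSM11 stayed between 4.98 and 6.48 FPKM in all libraries.

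Of 18 histone chaperones none passed in either fraction, with medians of 0.12 and 0.13, and 0.19 in polysomal RNA without RBMX replicate 2. Of all genes tested 0.164% passed in total RNA, 0.0477% in polysomal RNA and 0.075% there without that library. At an unadjusted p under 0.05 there were 0 chaperones in total and 1 in polysomal RNA, and 0 without that library. The shares of all genes tested were 18.8%, 11.7% and 5.95%. Of 28 S phase genes none passed, with medians of 0.17 in total and 0.16 in polysomal RNA, and 0.21 without RBMX replicate 2. In total RNA 25 S phase genes had a log2 fold change above 0 and 3 below (49.8% of all genes were below). Control replicate 3 was under the other controls for some of them, which raises the fold change and widens the spread. MCM2 measured 39.7, 38.7 and 18.4 FPKM in control total RNA and 45.1, 42.8 and 37.6 with RBMX. GINS2, at 121, 121 and 125 against 115, 116 and 122 FPKM, had no such drop. At an unadjusted p under 0.05, 1 S phase gene was higher and 1 lower in total RNA, against 7.93% and 10.8% of all genes. In polysomal RNA there were none with or without RBMX replicate 2, against 11.7% and 5.95% of all genes. Of the 12 genes listed as polyadenylated histone variants none passed either. Whether each is made only with a poly(A) tail was not checked. At an unadjusted p under 0.05, 1 was higher and 1 lower in total RNA, against 7.93% and 10.8% of all genes. In polysomal RNA 1 was lower with and without RBMX replicate 2, against 6.53% and 3.03% of all genes. The medians of these 12 were 0.06 in total and -0.10 in polysomal RNA, beside -0.41 and 0.43 for the replication-dependent genes. Without RBMX polysomal replicate 2 the polysomal medians were -0.08 and -0.41. H2AFZ, H3F3B and H2AFX, the 3 variants with the highest means, had log2 fold changes of -0.07, 0.05 and 0.03 in total RNA and -0.31, -0.08 and -0.11 in polysomal RNA, with overlapping groups. Without RBMX polysomal replicate 2 the polysomal values were -0.14, 0.0082 and -0.075.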

How the data were processed

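Polysomal and total RNA of transfected HEK293 cells was sequenced as 2 x 100 base reads. The submitters' processing notes name CASAVA 1.8, TopHat2 2.0.13, Cufflinks 2.2.1, Cuffnorm and build hg19, while the methods name hg38. The deposited table holds FPKM per gene, which the authors normalized with Cuffnorm, for 12 libraries. Coordinates and sequences were therefore taken only from GENCODE 29 and RefSeq (both GRCh38). No counts were given and none could be recovered, so counting precision is unknown. Genes with a mean of at least 0.5 FPKM were tested with limma 3.58.1 (R 4.3.3) on log2(FPKM + 1) with a trended prior, two-sided, 3 libraries against 3, with Benjamini-Hochberg adjustment over all 14676 genes and a threshold of 0.05. An exact permutation test of 3 against 3 cannot go below p = 0.10. The procedure was checked on simulated data, with changes set only in genes of higher level and smaller spread. No simulated library stood apart. The check therefore does not cover genes of low FPKM or a library such as RBMX polysomal replicate 2. Named genes were those past the threshold in any comparison, per class the 2 with the highest mean and those with the largest rise and fall in each fraction, the highest untested gene, the identical pairs, 7 processing genes, RMRP and RPPH1, list genes past the threshold with RBMX, and 3 variants. Others are named as examples. The members and lists were chosen with earlier results of these data known. Alternatives were another pseudocount, filter, scaling, prior and sample set and a replicate block. Total RNA was pooled from the fractions of a gradient, but the labels do not tie total and polysomal libraries of the same number to 1 culture. Without genes of small RNAs, their deviations from the group means correlated at 0.61, 0.69 and 0.84 in the control and 0.22, 0.020 and 0.65 with RBMX. Over all genes tested the values were 0.076, 0.099 and 0.31 in the control and 0.0018, 0.022 and 0.089 with RBMX. The higher of these values leave pairs of 1 culture possible. The main fits did not pair the libraries, and a block by number was an alternative.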

Additional observations from a re-analysis of the deposited data

How the results depend on the processing

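In total RNA the count of histone genes called, 1, was 0 with a replicate block and also in a fit to all 12 libraries, and ranged from 0 to 1 when 1 library was left out. The median log2 fold change there, -0.41, was -0.74 with a pseudocount of 0.1, -0.49 with a minimum mean of 1 FPKM and -0.28 with no filter, and ranged from -0.49 to -0.39 when 1 library was left out. The other 4 comparisons called no histone gene under any setting, the replicate block (0 called) included. Without the identical pairs the counts did not move, since none of them was tested. The labels give no common origin for control and RBMX libraries of the same number. Without genes of small RNAs, their deviations correlated at -0.17 to 0.34, the highest for total replicate 1. A common origin was not shown, so the block is not known to be a paired test there. Leaving out 1 library, the median in polysomal RNA ranged from -0.41 (without RBMX replicate 2) to 0.92. For the comparisons that span both fractions, the total and polysomal libraries of 1 number were left out together. With RBMX libraries, RBMX polysomal replicate 2 was also left out alone. The median then ranged from 0.057 to 1.42 for the polysomal minus total effect. It ranged from 0.051 to 1.44 for polysomal against total RNA in RBMX cells, and from -0.16 to 0.12 in control cells. The lowest values of the effect and of RBMX cells leave out RBMX polysomal replicate 2 alone, a setting chosen after seeing the data. With quantile normalization the log2 fold change in total RNA was -0.037 for HIST1H3D, -0.17 for H3F3B and -0.057 for H2AFX, and -0.015 in polysomal RNA for CASP8AP2. With median-ratio rescaling that of NPAT in polysomal RNA was 0.00040. Leaving out 1 library turned the sign of these values in polysomal RNA: HIST1H1E from -0.62 to 1.54, HIST1H2AH from -0.85 to 1.01, HIST1H2AI from -1.08 to 0.71, HIST1H2AL from -0.66 to 1.31, HIST1H2BJ from -0.55 to 1.02, HIST1H2BK from -0.030 to 0.16, HIST1H3B from -0.47 to 1.58, HIST1H3D from -0.10 to 0.27, HIST1H3H from -0.16 to 1.17, HIST1H4A from -0.95 to 1.07, HIST1H4C from -0.49 to 1.41, HIST1H4E from -0.81 to 1.16, HIST1H4H from -0.76 to 0.70, HIST1H4K from -0.081 to 1.16, HIST2H2BF from -0.66 to 1.16, HIST3H2BB from -0.29 to 1.41, RMRP from -0.44 to 1.78 and RPPH1 from -0.49 to 1.72, the lowest in each case without RBMX replicate 2. It also did so for CASP8AP2 (-0.060 to 0.063), ERI1 (-0.070 to 0.092), H3F3B (-0.13 to 0.0082), NPAT (-0.079 to 0.045) and SLBP (-0.12 to 0.049), and in total RNA for H2AFX (-0.048 to 0.085), HIST1H3D (-0.058 to 0.075), HIST2H2AC (-0.045 to 0.27), LSM10 (-0.10 to 0.052) and SLBP (-0.035 to 0.011). The cause was not tested.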
